A study of Mus musculus with 44 samples.

Results

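The gene set described here holds 34 genes that code for the folding machinery of the endoplasmic reticulum and for its stress pathway, the unfolded protein response. They were listed by gene symbol with earlier results of these data known, so the comparisons with all genes below are descriptive. All 34 were found among the 22674 genes of one deposited table and among the 18274 genes of the other. The set comprises 9 chaperones and their cofactors, 2 lectin chaperones, 4 disulfide isomerases, 4 stress sensors and transcription factors, 10 genes of misfolded-protein removal, and 5 genes of the membrane channel through which new chains enter the organelle.

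Proteins bound for secretion or for the cell surface enter the endoplasmic reticulum as they are made, and chaperones, lectins and disulfide isomerases fold them there. When unfolded chains collect, 3 sensors in the membrane respond: IRE1 (gene Ern1), which splices the mRNA of the transcription factor XBP1, ATF6, which is cut to release a transcription factor, and PERK (gene Eif2ak3), which slows translation and favours that of ATF4. XBP1 and ATF6 raise the chaperones and the removal genes, ATF4 raises genes such as Ddit3 and Trib3, and the follicle's granulosa cells and oocyte both secrete much protein, including inhibin and the zona pellucida.

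The RNA came from ovarian follicles of wild-type CD-1 mice, which are bred as an outbred stock. In the maturation window, in which follicles grow under gonadotropin, 10 libraries came from follicles exposed to PFNA (perfluorononanoic acid, a long-chain perfluoroalkyl acid) and 11 from follicles given DMSO, the solvent. In the ovulation window, 11 libraries came from follicles given hCG (human chorionic gonadotropin, which triggers ovulation) together with PFNA and 12 from follicles given hCG alone. The labels used here give no dose, exposure time, animal age or number of follicles per library, and do not say which libraries share an animal. The p-values below therefore measure the spread between these libraries, which may be technical in part.

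Maturation values were TPM (transcript abundances corrected for length and scaled to a fixed library total), and the number of reads behind them is unknown. Ovulation values were estimated read counts, from 10600900 to 19511500 per library, shown as CPM (counts scaled to a fixed library total). Levels were not compared between the 2 tables. Granulosa cell markers were present in all 4 groups: 14 of 15 had a mean of at least 1 TPM in maturation controls and 15 of 15 a mean of at least 1 CPM in ovulation controls. In the maturation window, PFNA replicates 1 and 2 stood apart from the other 8 PFNA libraries, with an oocyte marker sum of 166 and 129 TPM where the others except replicate 10 held 8.70 to 21.1, and replicate 10 held 423.

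RefSeq promoter sequences (build GRCm38.p6, 250 bases before to 50 after each start) were matched for 28 of the 34 members; Hyou1, Manf, Atf6, Derl1, Sec61a1 and Ssr2 had none in the table used. The endoplasmic reticulum stress element (ERSE), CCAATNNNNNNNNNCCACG, is the textbook element of chaperone promoters, at which NF-Y binds CCAAT and ATF6 binds CCACG. Searched on both strands, it was present in 9 of the 28 members (32.1%) and in 37 of 27025 genes with a promoter (0.137%), or 0.119% of all 32851 promoters. Its shorter form, ERSE-II, ATTGGNCCACG, was present in 2 members (7.14%, Dnajb11 and Herpud1) and in 0.0444% of genes, or 0.0365% of promoters. Each holds CCAAT on 1 strand, and CCAAT alone was present in 82.1% of members and 41.1% of genes, or 37.4% of promoters. The XBP1 element searched, TGACGTGG, was in none of the 28 members and in 0.714% of genes, or 0.676% of promoters. Since the element is known from chaperone promoters, its high share in this set is no new result. A match is a run of letters and not a measured binding site.

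The stretches below carry the element in members whose levels are given further on, and do not show every match. Each is 5′ to 3′ on the gene's strand with 8 flanking bases, and capitals mark the CCAAT and CCACG parts (printed as ATTGG and CGTGG where that part reads on the opposite strand).
Hspa5 (chr2:34772017-34772051, + strand): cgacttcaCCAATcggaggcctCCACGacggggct
Hsp90b1 (chr10:86705525-86705664, − strand, 2 elements): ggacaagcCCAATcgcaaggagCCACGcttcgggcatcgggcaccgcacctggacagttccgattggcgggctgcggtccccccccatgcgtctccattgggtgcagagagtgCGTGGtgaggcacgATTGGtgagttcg
Dnajc3 (chr14:118937819-118937853, + strand): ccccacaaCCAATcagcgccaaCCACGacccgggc
Creld2 (chr15:88819512-88819546, + strand): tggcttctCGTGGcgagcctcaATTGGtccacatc
Calr (chr8:84847067-84847101, − strand): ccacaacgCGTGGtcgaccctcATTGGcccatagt
Pdia6 (chr12:17266483-17266517, + strand): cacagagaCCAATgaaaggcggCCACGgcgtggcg
Herpud1 (chr8:94386369-94386395, + strand, ERSE-II): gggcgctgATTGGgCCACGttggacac
Derl3 (chr10:75893234-75893268, + strand): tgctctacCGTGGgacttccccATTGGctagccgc
Counted from the RefSeq start site, the Hspa5 stretch began 73 bases before it and that of Herpud1 began 60 before it. RefSeq starts can differ from the GENCODE gene positions given with the values below: the Hspa5 stretch lies inside the gene as GENCODE draws it, because its GENCODE start is farther upstream. Canx and Syvn1 also held an ERSE. The ERSE-II of Dnajb11 lay after its RefSeq start, at bases 8 to 18.

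In maturation, PFNA libraries held less mRNA of most folding genes: 14 of the 15 chaperones, lectins and isomerases fell. Of all 34 members, 22 fell, 2 rose (Os9 and Atf6) and 10 did not pass the test. Changes are PFNA minus control in log2(TPM + 1), a scale on which the change of a low gene appears too small, and a call is an adjusted p under 0.05 over all genes (limma, Benjamini-Hochberg). Of 13712 genes tested in this window, 29.4% were called, 16.1% as lower and 13.3% as higher, so 22 lower of 34 is above that background and 2 higher is below it. The members' median was -0.29, beside 0.02 over all genes. Without PFNA replicates 1 and 2, 24 members were again called, with Xbp1 gained and Canx lost (adjusted p = 0.055). These 2 held the highest chaperone means of the PFNA group, and replicate 10, with the highest oocyte marker sum, was kept. Leaving them out enlarges the fall of the chaperones, so the refit adds no support for a fall. In 4 members every PFNA library lay below every control (Calr, Pdia6, P4hb and Ssr1), against 0.788% of all genes below and 1.28% in either direction, and none lay wholly above (0.489% of all genes). Together the 34 members made up 0.891 to 1.11% of all TPM in controls and 0.680 to 0.927% with PFNA. In bulk RNA, fewer cells of a type and less RNA per cell cannot be told apart.

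**Figure D1:**
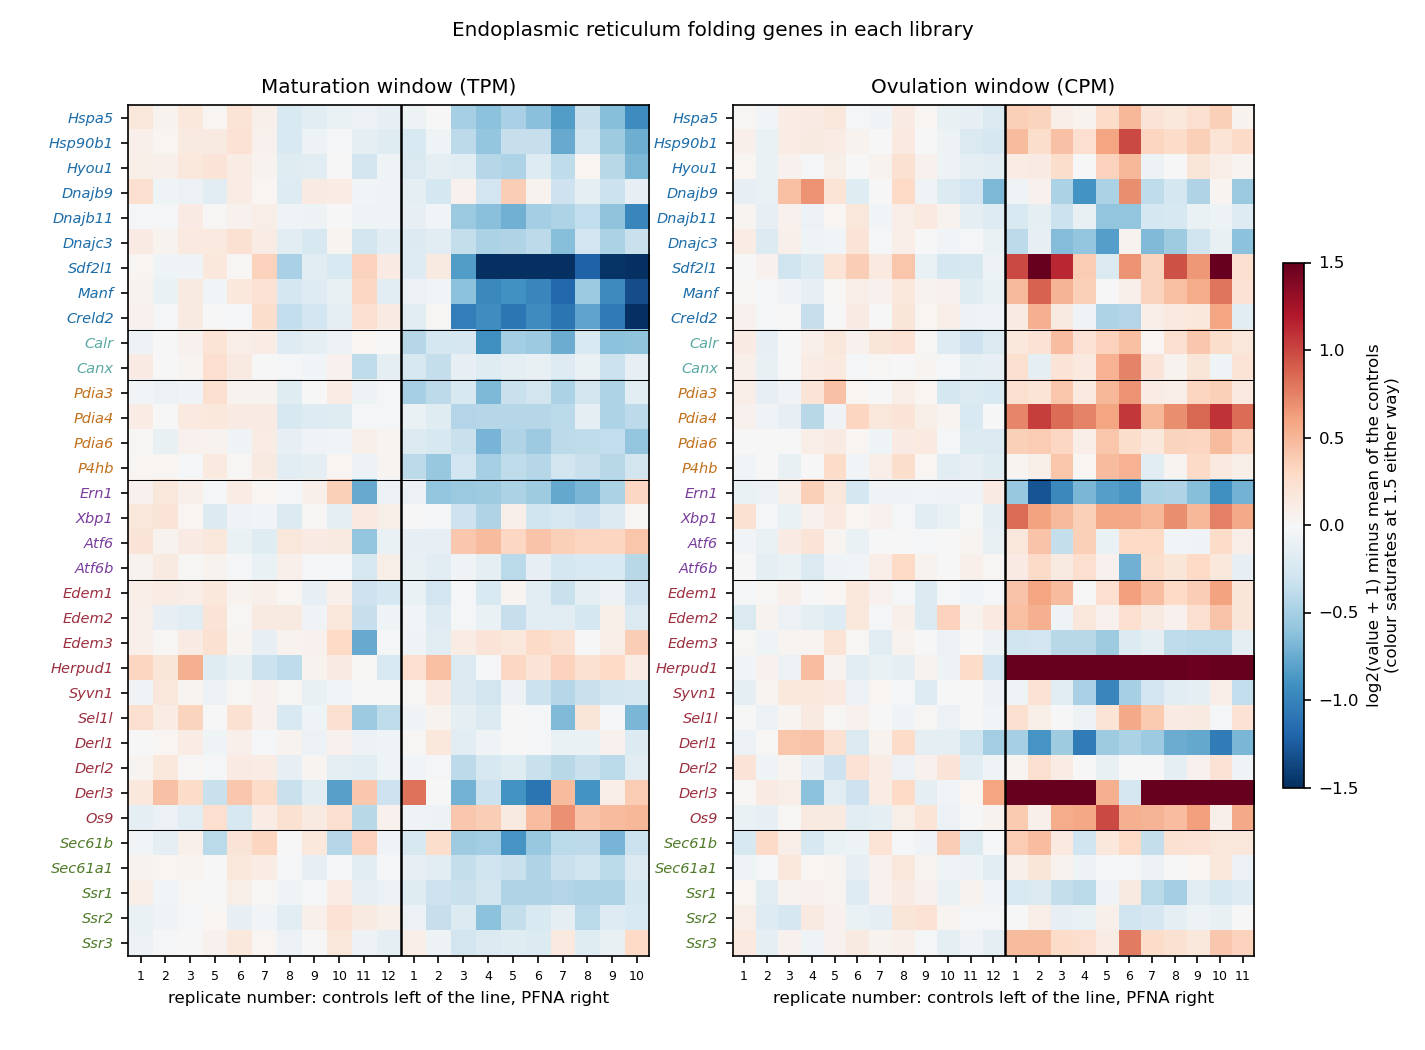
Log2 level of each of the 34 members (rows, grouped by role) in each of the 44 libraries (columns), relative to the mean of the same window's controls. The chaperone, lectin and isomerase members are mostly below the control mean in maturation PFNA libraries, with the chaperones of replicates 1 and 2 nearer to it, and mostly above it in ovulation PFNA libraries.

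Among chaperones, 8 of 9 fell, with a median change of -0.50. Hspa5 (BiP, chr2:34771970-34777547), the Hsp70 of the endoplasmic reticulum that also holds the sensors inactive, had the highest mean control level of all members per length. It measured 2470 TPM in the lowest control, 2949 in the median and 3327 in the highest, then 1497, 1966 and 2890 TPM in PFNA libraries. Of the 10 PFNA libraries 8 lay below every control, and replicates 1 and 2, at 2743 and 2890 TPM, lay among them. The log2 change was -0.50 (SE 0.10, limma adjusted p = 0.00070). It was -0.62 without those 2 libraries, which held the highest PFNA values, so that refit could only enlarge the fall. With the oocyte marker share in the fit it was -0.42 and not called (limma adjusted p = 0.089). Hsp90b1 (GRP94, the Hsp90 of the organelle) measured 829.6, 998 and 1131 TPM in controls and 578, 757 and 936 with PFNA, a change of -0.43 (SE 0.08). Hyou1, a large Hsp70-like exchange factor for BiP, measured 344, 433 and 475 TPM and 259.7, 338 and 424 with PFNA and fell by 0.31 (SE 0.08), with 5 PFNA libraries below every control.

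The largest change of any member was in Sdf2l1, a cofactor of BiP and its J-proteins. It measured 109, 155 and 195 TPM (lowest, median and highest) in controls and 38.1, 51.4 and 168 with PFNA. Replicates 1 and 2, at 134 and 168 TPM, lay among controls and the other 8 lay below them all. The change was -1.26 (SE 0.22, limma adjusted p = 0.00024), the only member past a 2-fold fall, which 3.81% of all genes passed, while no member passed a 2-fold rise (0.963% of all genes). Without replicates 1 and 2 it was -1.57, and with the oocyte marker share in the fit it was -0.73 and not called (adjusted p = 0.13). Creld2, a secreted isomerase-like stress protein, measured 80.9, 105 and 126 TPM in controls and 36.03, 52.3 and 106 with PFNA (-0.86, SE 0.14). Manf, a secreted stress factor that binds BiP, measured 30.9, 36.4 and 46.4 TPM and 14.3, 19.1 and 36.3 with PFNA (-0.76, SE 0.14). In both, 8 of 10 PFNA libraries lay below every control and replicates 1 and 2 did not. Neither call held with the oocyte marker share in the fit (limma adjusted p = 0.052 for Creld2 and 0.072 for Manf). Of the J-protein cochaperones, which drive the BiP cycle, Dnajb11 fell by 0.50 (SE 0.08) and Dnajc3 by 0.38 (SE 0.07), while Dnajb9 did not pass (-0.11, adjusted p = 0.30).

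The lectin chaperones calreticulin (Calr, soluble) and calnexin (Canx, in the membrane) hold glycoproteins until they are folded, and both fell. Calr (chr8:84841850-84846934) measured 1693, 1936 and 2232 TPM in the lowest, median and highest control and 1026, 1348 and 1663 with PFNA. The groups did not overlap, and the change was -0.51 (SE 0.08, limma adjusted p = 5.1e-05). Canx measured 151, 196 and 235 TPM in controls and 154, 177 and 183 with PFNA (-0.19, SE 0.06, adjusted p = 0.024), and no PFNA library lay below every control.

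All 4 disulfide isomerases fell. P4hb (PDI, chr11:120560298-120573253), the abundant general isomerase, measured 602, 682 and 739 TPM in controls and 452, 512 and 555 with PFNA. Its groups did not overlap and replicates 1 and 2 were low with the rest, and the change was -0.38 (SE 0.05, limma adjusted p = 9.3e-06). Pdia6, an isomerase that binds BiP and IRE1, measured 189, 209 and 223 TPM in controls and 127, 158 and 178 with PFNA, again with no overlap (-0.42, SE 0.06, adjusted p = 1.7e-05). Pdia3 (ERp57), the partner of calnexin and calreticulin, measured 277, 308 and 372 TPM in controls and 197, 245 and 279.9 with PFNA (-0.38, SE 0.06). Pdia4 (ERp72) measured 140.2, 164 and 185 TPM in controls and 120.0, 124 and 154 with PFNA (-0.34, SE 0.06).

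**Figure D2:**
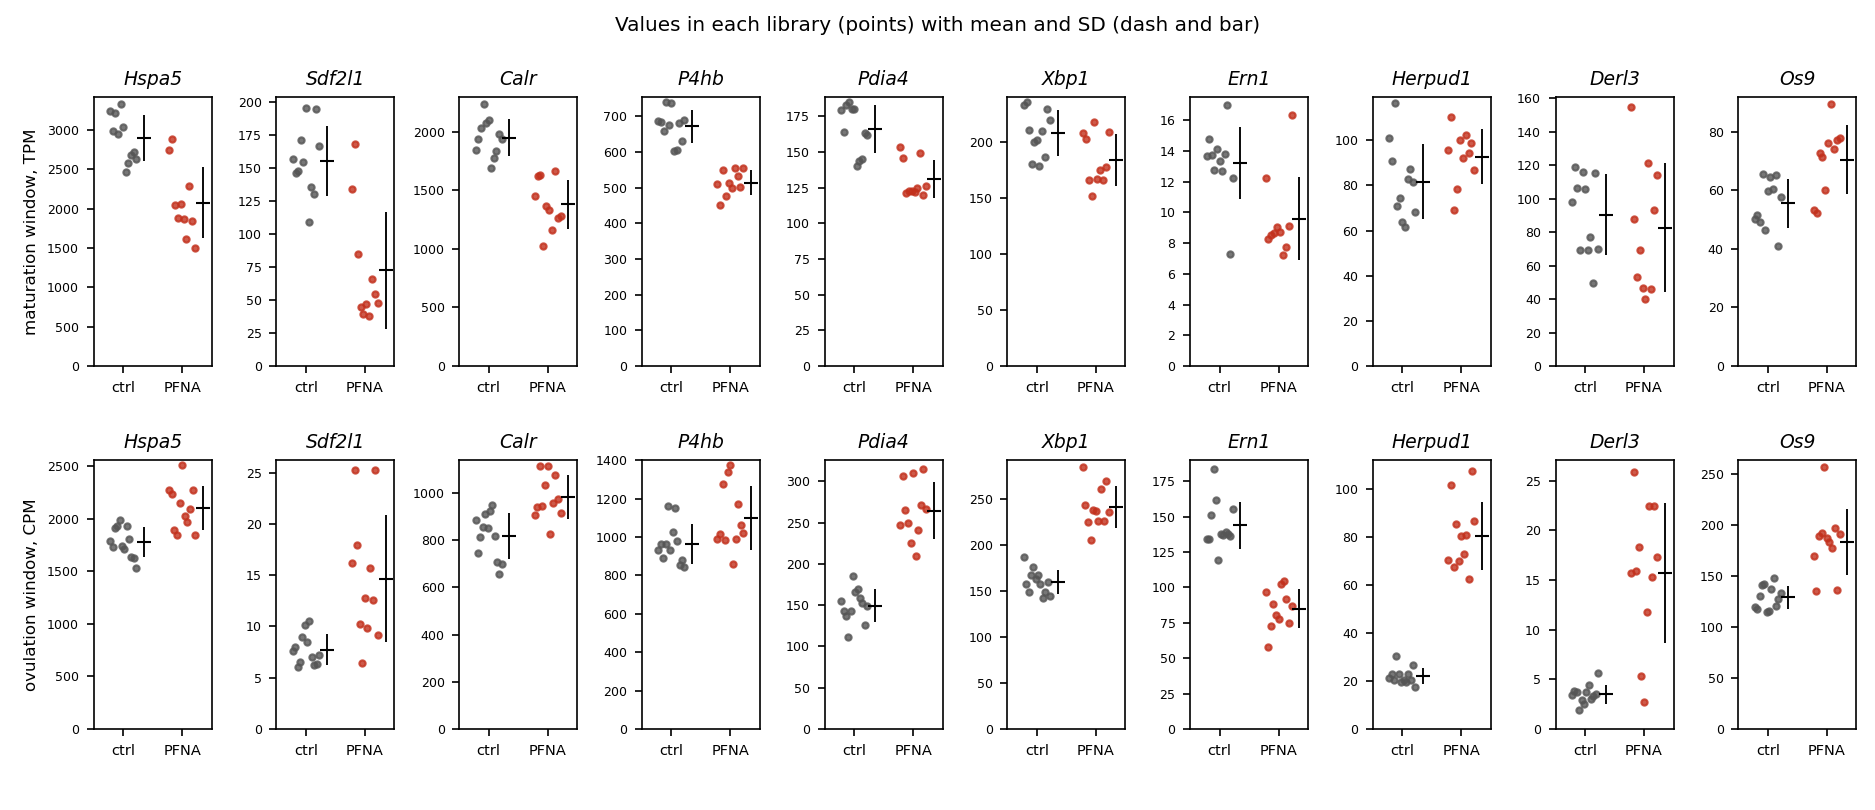
Level of 10 members in every library, in TPM for the maturation window and CPM for the ovulation window, on an axis of its own for each gene and window, with control and PFNA libraries as points and the mean and SD as a dash and bar. Calr and P4hb do not overlap between groups in maturation, and Pdia4, Xbp1, Herpud1 and Ern1 do not in ovulation.

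Of the 4 sensors and transcription factors 2 fell, 1 rose and 1 did not pass. Ern1 (IRE1) was near the low end of the set, at 7.30, 13.7 and 17.0 TPM in controls and 7.21, 8.69 and 16.4 with PFNA. Replicate 10 held the highest PFNA value and 1 PFNA library lay below every control (-0.44, SE 0.13, limma adjusted p = 0.012). Xbp1, whose total mRNA is counted here with spliced and unspliced forms together, measured 179, 209 and 236 TPM and 152, 177 and 218 with PFNA. It missed the threshold (-0.18, SE 0.07, adjusted p = 0.064) and passed it without replicates 1 and 2 (-0.22, adjusted p = 0.024). Atf6 was the lowest member, at 2.95, 5.48 and 5.78 TPM in controls and 4.45, 6.54 and 7.25 with PFNA. It rose by 0.28 (SE 0.10, adjusted p = 0.040), with 8 PFNA libraries above every control, but in 12 of the 21 fits without 1 library (controls 6, 7, 11 and 12 and PFNA replicates 3 to 10) it missed the threshold, at adjusted p 0.055 to 0.072. Its relative Atf6b fell by 0.21 (adjusted p = 0.0040).

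The removal genes take misfolded chains out of the organelle for degradation, and only 3 of 10 were called here, with a median of -0.15. Os9, a lectin that hands misfolded glycoproteins to the removal complex, rose. It measured 41.1, 57.6 and 65.5 TPM in controls and 52.1, 73.5 and 89.3 with PFNA, with 7 PFNA libraries above every control (0.33, SE 0.10, limma adjusted p = 0.016). Syvn1 (HRD1, the ubiquitin ligase of that complex) fell by 0.20 and Derl2, a channel subunit, by 0.25. Herpud1, a stress-induced organiser of the complex, overlapped fully between groups at 61.4 to 116 and 69.1 to 110 TPM (0.20, adjusted p = 0.16). Derl3 spread widely, at 49.4 to 119 TPM in controls and 40.2 to 155 with PFNA (-0.21, adjusted p = 0.51). The mannosidase-like Edem1, Edem2 and Edem3, the adaptor Sel1l and the channel subunit Derl1 did not pass either, with changes of -0.16, -0.14, 0.12, -0.16 and -0.04.

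Of the 5 channel genes 4 fell, with a median of -0.30. Ssr1, a subunit of the translocon-associated complex, measured 79.3, 86.9 and 93.9 TPM in controls and 62.5, 66.1 and 76.3 with PFNA, with no overlap (-0.36, SE 0.05, limma adjusted p = 1.1e-05). Sec61a1, the pore itself, fell by 0.30, its small partner Sec61b by 0.43 and Ssr2 by 0.28. Ssr3 did not pass (-0.07, adjusted p = 0.45).

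Markers of the follicle's cell types also differed. All 13 oocyte markers tested fell in maturation: their sum was 162 to 280 TPM in controls and 8.70 to 423 with PFNA, with a median of 17.2. When the oocyte marker share entered the fit, 6 of the 24 member calls remained (Dnajb11, Calr, Pdia3, Pdia6, P4hb and Ssr1, adjusted p 0.0060 to 0.044), the members' median was -0.21, and 5.59% of all genes were called. Besides that of Sdf2l1, the lost calls whose change shrank by over 1.5 times in that fit were Dnajc3 (-0.24), Ern1 (-0.04), Atf6 (0.14), Syvn1 (-0.05), Derl2 (-0.09), Os9 (0.20), Sec61b (-0.21) and Sec61a1 (-0.18). The other calls lost were Hspa5 (limma adjusted p = 0.089), Hsp90b1 (0.063), Hyou1 (0.056), Manf (0.072) and Creld2 (0.052). Canx (0.17), Pdia4 (0.091), Atf6b (0.067) and Ssr2 (0.14) were lost as well. The granulosa marker sum, most of it Inha (an inhibin subunit, mean 34970 TPM in controls), was 36423 to 58243 TPM in controls and 15598 to 44148 with PFNA. Of 15 granulosa markers 6 fell and 9 did not pass, Foxl2, a defining granulosa factor, among the latter (adjusted p = 0.090). Replicate 10 held the highest oocyte sum, the lowest granulosa sum and the lowest mean of the 9 chaperones, at -0.92 against the mean of the controls. Replicates 1 and 2 held the highest granulosa sums and the highest chaperone means among PFNA libraries (-0.16 and -0.06), within the control range of -0.24 to 0.14, while their isomerase means (-0.30 and -0.34) lay below the control range of -0.17 to 0.15. The part of cell composition in these changes was not tested beyond that fit. Of 11 theca and stroma markers 1 fell, none of 6 endothelial markers passed, and of 3 leukocyte markers tested 1 rose. Over all genes in this window, 16.1% were lower and 13.3% higher.

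**Figure D3:**
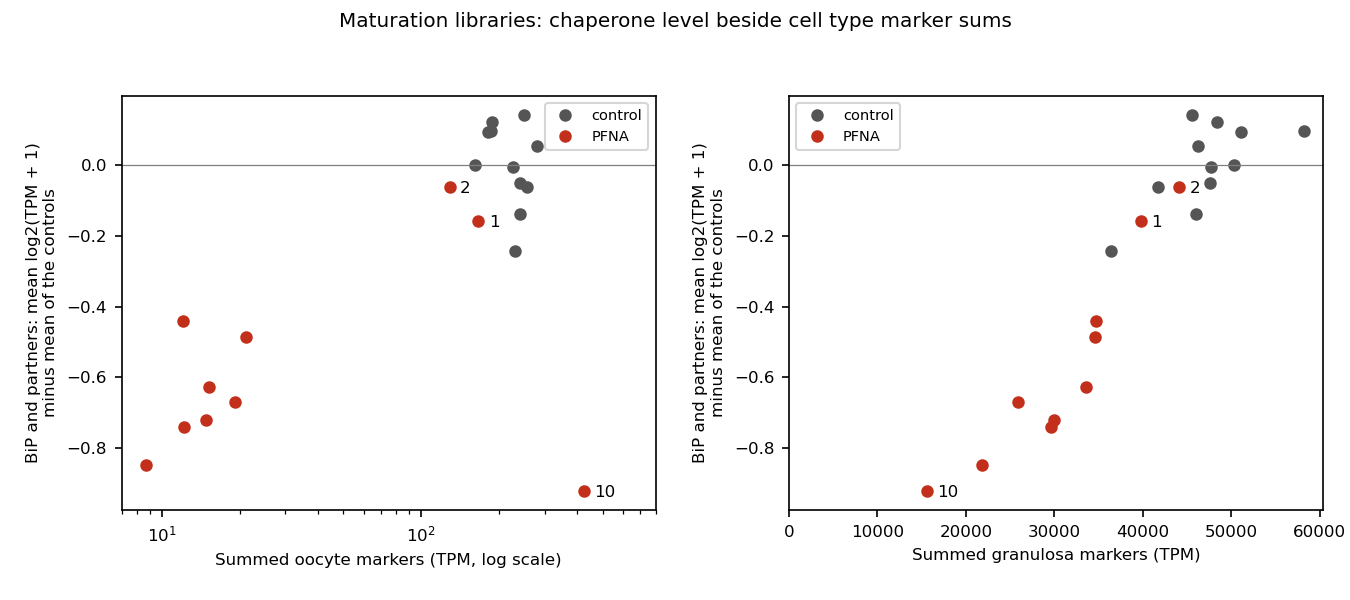
Mean log2 level of the 9 chaperones relative to the control mean in each maturation library, against the summed TPM of oocyte markers (left, log axis) and of granulosa markers (right). Only PFNA replicates 1, 2 and 10 are numbered. PFNA replicates 1 and 2 lie within the control range of the chaperone mean (y axis), replicate 2 has fewer oocyte markers than any control, and replicate 10 is lowest in chaperones and in granulosa markers but highest in oocyte markers.

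In the ovulation window more members were higher with PFNA than lower: 19 rose, 7 fell and 8 did not pass. Here most genes differed, with 73.2% of 13441 genes called (38% higher and 35.2% lower, edgeR quasi-likelihood, adjusted p under 0.05), so 26 of 34 called is near the background, while 19 higher is above it. The members' median log2 change in CPM was 0.18, beside 0.04 over all genes. In 4 members every PFNA library lay above every control (Hsp90b1, Pdia4, Xbp1 and Herpud1), and in Ern1 every one lay below. The background for non-overlap was 11.9% above and 14.1% below (26% together), so these counts are at or below it. The members took 1.11 to 1.25% of counts in controls and 1.34 to 1.60% with PFNA. With library totals as the only scaling, 22 members were higher and 4 lower, and the median over all genes moved to 0.16.

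Among chaperones 5 rose and 2 fell. Hspa5 measured 1530, 1763 and 1987 CPM in the lowest, median and highest control and 1841, 2088 and 2508 with PFNA. Of 11 PFNA libraries 7 lay above every control (0.24, SE 0.06, edgeR adjusted p = 0.0016). Hsp90b1 measured 1368, 1654 and 1801 CPM in controls and 1876, 2030 and 3234 with PFNA, without overlap (0.42, SE 0.08, adjusted p = 6.6e-05). Manf measured 107, 123 and 136 CPM and 122, 166 and 226 with PFNA, with 9 libraries above every control (0.45, SE 0.08). Sdf2l1, which fell most in maturation, measured 6.03, 7.41 and 10.5 CPM and 6.43, 12.8 and 25.2 with PFNA (0.92, SE 0.19, adjusted p = 9.7e-05). Hyou1 measured 486, 553 and 640.3 CPM in controls and 518, 589.9 and 774 with PFNA. It rose by 0.15 at adjusted p = 0.041, a call lost in 9 of the 23 fits without 1 library (controls 2, 4, 10, 11 and 12 and PFNA replicates 3, 5, 6 and 9, adjusted p 0.055 to 0.088) and with the replicate number as a block (adjusted p = 0.0998).

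Of the 3 J-protein cochaperones 2 fell and none rose. Dnajc3 (P58IPK), a cochaperone that also inhibits PERK, measured 152, 172 and 201 CPM in controls and 98.3, 121 and 182 with PFNA. Of 11 PFNA libraries 8 lay below every control (-0.41, SE 0.09, edgeR adjusted p = 0.00013). Dnajb11 fell by 0.26 (adjusted p = 0.00090), but with library totals only it missed the threshold (-0.13, adjusted p = 0.16). Dnajb9 (-0.23, adjusted p = 0.19) and Creld2 (0.09, adjusted p = 0.43) did not pass.

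Both lectins and all 4 isomerases rose. Calr measured 656, 835 and 947 CPM in controls and 827, 959 and 1115 with PFNA (0.26, SE 0.07, edgeR adjusted p = 0.0015), and Canx, at 791, 873 and 963 CPM and 786, 991 and 1452 with PFNA, rose by 0.22. Pdia4 (chr6:47796141-47813430) changed most of this group, from 111, 151 and 185 CPM to 210, 266 and 316 with PFNA. Its lowest PFNA library lay above its highest control (0.82, SE 0.08, adjusted p = 1.1e-09). Pdia6 measured 322, 378 and 414 CPM in controls and 401, 469 and 520.2 with PFNA, 10 of 11 above every control (0.31, SE 0.05). Pdia3, at 724, 877 and 1185 CPM and 933, 1030.5 and 1386 with PFNA, rose by 0.29. P4hb, at 845, 949 and 1162 CPM and 860.4, 1023 and 1374 with PFNA, rose by 0.19 at adjusted p = 0.038, a call lost in 10 of 23 fits without 1 library (controls 1, 3, 6, 10, 11 and 12 and PFNA replicates 3, 5, 6 and 9, adjusted p 0.052 to 0.081) and with the replicate block (adjusted p = 0.091).

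The 2 genes of the IRE1 branch went opposite ways. Xbp1 (chr11:5520659-5525893) measured 142, 159 and 186 CPM in controls and 205, 237 and 285 with PFNA. Ern1 (chr11:106394650-106487852) measured 120, 138 and 184 CPM in controls and 57.8, 87.1 and 105 with PFNA. Neither gene's groups overlapped: Xbp1 rose by 0.59 (SE 0.06, edgeR adjusted p = 1.1e-09) and Ern1 fell by 0.76 (SE 0.08, adjusted p = 1.1e-08). Atf6 measured 134, 144 and 165 CPM and 112, 163 and 195 with PFNA and missed the threshold (0.14, adjusted p = 0.087), which DESeq2 passed at 0.044. Atf6b did not pass (0.10, adjusted p = 0.30).

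Of the removal genes 6 rose and 3 fell, and the largest rises of the set were here. Herpud1 (chr8:94386438-94395377), whose promoter holds the ERSE-II shown above, measured 17.7, 20.9 and 30.5 CPM in controls and 62.4, 80.5 and 108 with PFNA. All 11 PFNA libraries lay above all controls (1.87, SE 0.10, edgeR adjusted p = 9.8e-15). Derl3 (chr10:75893413-75895941), the derlin of secretory cells, was low, at 1.87, 3.47 and 5.63 CPM in controls and 2.71, 15.9 and 25.9 with PFNA. Replicates 5 and 6, at 5.36 and 2.71 CPM, lay among controls and the other 9 above them (2.17, SE 0.26, adjusted p = 4.7e-08). These 2 were the only members past a 2-fold rise, which 18.1% of all genes passed, and none passed a 2-fold fall (9.02%).

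Os9 rose here too, from 114, 129 and 148 CPM to 135, 187 and 256 with PFNA (0.50, SE 0.08, edgeR adjusted p = 4.4e-06), and was the only member called higher in both windows. Edem1 rose by 0.40, with 10 PFNA libraries above every control, Edem2 by 0.23 and Sel1l by 0.18. Derl1, at 327, 456 and 629 CPM in controls and 225, 291 and 336 with PFNA, fell by 0.72 (SE 0.10, adjusted p = 8.3e-07). Edem3, at 204, 228 and 263 CPM in controls and 157, 174 and 205 with PFNA, fell by 0.33 (SE 0.05, adjusted p = 3.4e-06). In each, 9 of 11 PFNA libraries lay below every control, so the families split: Edem1 and Edem2 rose and Edem3 fell, Derl3 rose, Derl1 fell and Derl2 did not pass (0.03, adjusted p = 0.72). Syvn1 fell by 0.23 (adjusted p = 0.031), and lost the call with library totals only (-0.10, adjusted p = 0.44) and in 2 of 23 fits without 1 library (PFNA replicate 4 or 6, adjusted p 0.056 and 0.051).

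Of the channel genes Ssr3 rose by 0.35, with 10 PFNA libraries above every control, and Ssr1 fell by 0.23 (edgeR adjusted p = 0.0023, and 0.064 with library totals only). Sec61b, Sec61a1 and Ssr2 did not pass, with changes of 0.16, 0.02 and -0.09.

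Cell type markers also differed in this window. Oocyte markers summed to 98.2 to 438 CPM in controls and 31.6 to 564 with PFNA, and 10 of 14 rose. With their share in the fit 25 members were called, Edem2 being the call lost (adjusted p = 0.083). The granulosa sum was 13471 to 20237 CPM in controls and 12211 to 19169 with PFNA, with 9 of 15 markers higher and 3 lower. Of 8 endothelial markers 7 rose, and of 12 theca and stroma markers 6 rose and 1 fell. Over all genes in this window, 73.2% were called, 38% as higher and 35.2% as lower. The leukocyte sum was 1.57 to 104 CPM in controls and 156 to 710 with PFNA, nearly all of the difference in Cd3e. Without Cd3e it was 1.35 to 104 CPM in controls and 3.21 to 138 with PFNA, with medians of 25.5 and 58.4. Of 7 leukocyte markers tested 3 rose (Cd3e, Cd68 and Tyrobp), while the general leukocyte marker Ptprc did not pass (edgeR adjusted p = 0.16). The part of these cell types in the members' changes was otherwise not tested.

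The PFNA effect was then compared between windows, as the difference of the log2 effects fitted with limma in each table, the ovulation effect on log2(CPM + 1). The 2 tables have different units, controls and baseline stages. The difference was called for 27 members, 25 of them with the higher effect in ovulation and 2 (Edem3 and Derl1) with the lower. Over 11215 genes tested in both, 67.7% were called, 32% as higher and 35.6% as lower, so 25 higher of 34 is above the background. The median difference was 0.40 for members and -0.04 over all genes. Sdf2l1 differed most, by 2.02 (SE 0.28, limma adjusted p = 4.6e-08), then Derl3 by 1.96 (SE 0.34), Herpud1 by 1.62 (SE 0.14), Manf by 1.18 (SE 0.16) and Pdia4 by 1.16 (SE 0.10).

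The call was lower in maturation and higher in ovulation for 11 members, or 32.4%, a pattern held by 7.64% of all genes. These were Hspa5, Hsp90b1, Hyou1, Sdf2l1, Manf, Calr, Canx, Pdia3, Pdia4, Pdia6 and P4hb: 50% of the members lower in maturation and 57.9% of those higher in ovulation, beside 42.7% and 21.3% over all genes. With the oocyte marker share in the maturation fit, only Calr, Pdia3, Pdia6 and P4hb of these kept the lower call. The ovulation calls of Hyou1 and P4hb were lost in some fits without 1 library, as given above. No member was called higher in maturation and lower in ovulation (573 of the 11215 genes were). Dnajb11, Dnajc3, Ern1, Syvn1 and Ssr1 were lower in both windows, 5 of 34 members beside 674 of 11215 genes. For Dnajc3 and Syvn1 the difference between windows was -0.05 and -0.06, not called (adjusted p = 0.68 and 0.67), and for Ern1 it was -0.32 (SE 0.15, adjusted p = 0.056). Of the 11 matched members with an ERSE or ERSE-II, 9 fell in maturation and none rose, and in ovulation 7 rose and 3 fell. Of the 17 matched members without, 9 fell and 1 rose, then 10 rose and 3 fell. The medians were -0.42 and 0.24 with the element and -0.21 and 0.19 without it.

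**Figure D4:**
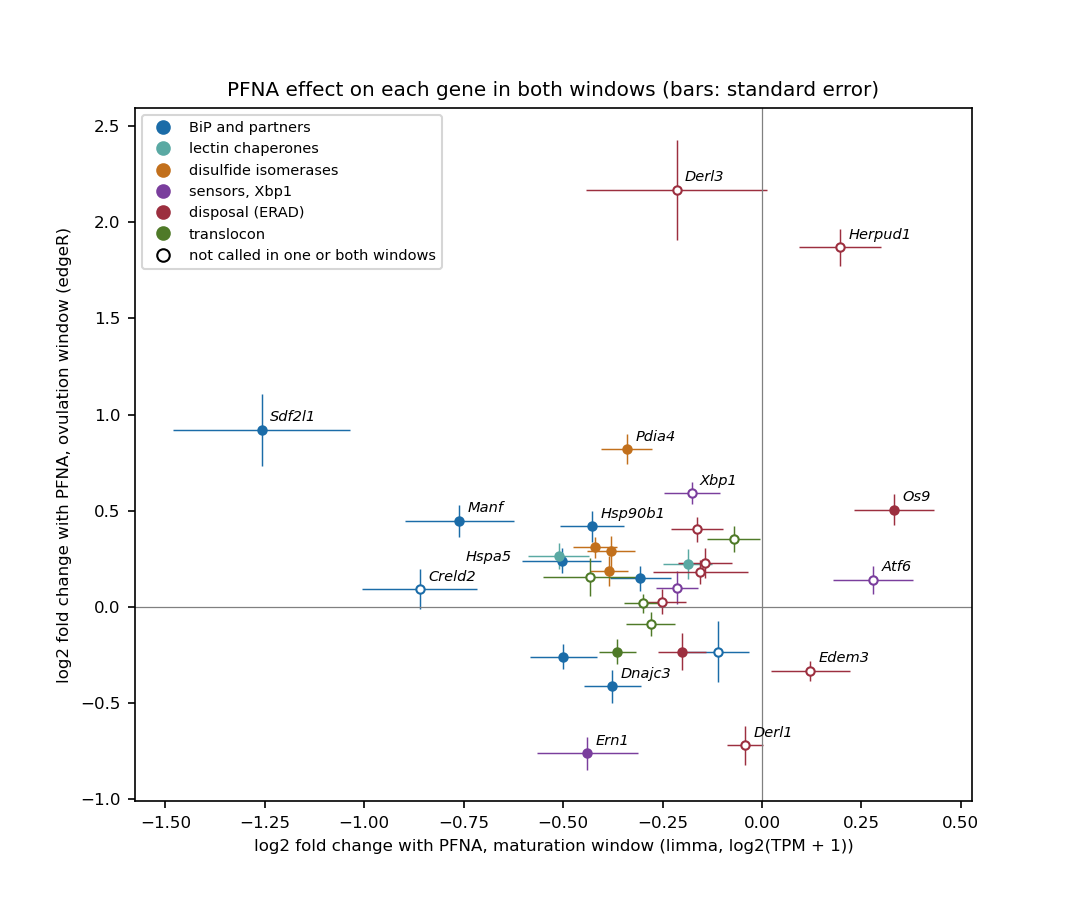
Log2 PFNA effect on each member in the maturation window (x axis) and in the ovulation window (y axis), with points coloured by role, bars of 1 SE, grey lines at 0 and open points for members not called in 1 or both windows. Most members lie at the upper left, lower in maturation and higher in ovulation, with Ern1, Dnajc3 and Dnajb11 at the lower left and Os9 at the upper right.

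Other genes of the pathway, 142 tested in each window, were read beside the members. In maturation 8 rose and 56 fell, with a median of -0.12, and in ovulation 63 rose and 41 fell, with a median of 0.06. The share called was 45.1% in maturation, above the 29.4% of all genes, and 73.2% in ovulation, the same as the 73.2% of all genes. The glycan genes, which attach and trim the sugars that calnexin and calreticulin read, were lower in 13 of 19 cases in maturation and higher in none (16.1% of all genes were lower). In ovulation 10 rose and 4 fell, beside 38% of all genes higher and 35.2% lower. The share called in either direction was 73.7%, near the 73.2% of all genes. In 7 of the 19 every PFNA library lay above every control (11.9% of all genes), and in 0 every one lay below (14.1%). In maturation the named genes that fell were Ppib, a prolyl isomerase of the organelle (from a median of 478 to 286 TPM, -0.63, SE 0.07), Wfs1, a membrane protein whose loss causes stress (-0.95), Tmed2, a cargo receptor (-0.40), and Rpn2, a subunit of the sugar transferase (-0.35). Ngly1, the cytosolic glycan remover, rose by 0.38 and Rcn2, a calcium-binding protein, by 0.36.

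In the PERK branch, Eif2ak3 (PERK) fell in maturation, from 9.64, 12.3 and 14.9 TPM to 7.77, 9.15 and 13.2 with PFNA (-0.37, SE 0.09, limma adjusted p = 0.0040). In ovulation it rose, from 34.1, 46.4 and 54.1 CPM to 51.8, 71.0 and 98.4 with PFNA (0.64, SE 0.10, edgeR adjusted p = 2.9e-06). The mRNA of Atf4, which is governed mainly through its translation, did not pass in either window (0.00 and 0.01, adjusted p = 0.99 and 0.92). Its target Ddit3 (CHOP, a factor linked to cell death) rose in both: from 14.1, 16.8 and 21.6 TPM to 18.9, 26.4 and 38.2 in maturation (0.59, SE 0.12, limma adjusted p = 0.00074), and from 2.86, 5.13 and 6.66 CPM to 25.2, 28.3 and 49.1 in ovulation (2.61, SE 0.14, edgeR adjusted p = 1.3e-14). Trib3, a pseudokinase induced by ATF4 and CHOP, rose in maturation from 2.49, 4.27 and 5.81 TPM to 11.5, 18.3 and 30.7, without overlap (1.92, SE 0.17, limma adjusted p = 3.2e-07).

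Of 10 genes listed for this branch, 3 rose and 2 fell in maturation, and 6 rose and 2 fell in ovulation. Over all genes, 13.3% were higher and 16.1% lower in maturation (29.4% called), and 38% higher and 35.2% lower in ovulation. The 8 called in ovulation are near the background share of 73.2%. The 6 were Eif2ak3, Ddit3, Ppp1r15a (GADD34, which restores translation; 1.63, SE 0.10), Chac1 (4.36, SE 0.30), Trib3 (4.18, SE 0.32) and Atf3 (3.30, SE 0.21), the last 3 named after their values were seen. In the last 5 of these every PFNA library lay above every control, as in 11.9% of all genes. Ppp1r15b, the constitutive counterpart of Ppp1r15a, fell by 0.59, and Cebpb by 1.01. Other named genes in ovulation were Ngly1 (1.89) and the COPII coat gene Sec24d (1.22), which rose, and the chaperone Mesd (-0.65), the thioredoxin-like Tmx1 (-1.51) and Wfs1 (-1.23), which fell with every PFNA library below every control.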

How the data were processed

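The members were matched by gene symbol in both tables; they and the lists of related genes and markers were chosen with earlier results of these data known. The authors deposited TPM values for the maturation window, under a name that calls them raw counts: the values of each library add up to 1000000, and 83.5% of values are not whole. For the ovulation window the authors deposited estimated counts (18.5% not whole), rounded here to whole numbers. HISAT2, Bowtie2 and Partek are named in the submitters' processing notes, whose versions, roles and strand setting are not given in the sources used here. A maturation column headed with the sixth number of a prefix that no sample title carries was taken as control replicate 6. No other per-sample column was left unused (0).

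Maturation was tested with limma (3.58.1, trend and robust) on log2(TPM + 1) where the mean reached 1 TPM, ovulation with edgeR (4.0.16, filterByExpr, TMM, robust quasi-likelihood), in R 4.3.3, with Benjamini-Hochberg adjustment over all genes tested. The edgeR SE is the change divided by the root of F. The window difference used limma in each table with Satterthwaite degrees of freedom. The scripts were tested on simulated data. Alternatives were DESeq2 (1.42.0), other scalings, filters and pseudocounts, the replicate number as a block, the oocyte marker share as a covariate, and leaving out libraries. All 34 members are named; full values are given per window for the 4 higher and 4 lower calls with the smallest p, for Hspa5, Xbp1, Ern1 and Atf6, and for members called in opposite directions. Other pathway genes were named by the same count of calls per window, plus Eif2ak3, Atf4 and Ddit3, except for 1 that is not reported here. Gene positions are GRCm38 from GENCODE M21, in which exons of 10 members overlap another gene's, 9 of them on the opposite strand (among them Manf, Pdia3, Pdia6 and Syvn1), so some of their reads may belong to the neighbour.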

Additional observations from a re-analysis of the deposited data

Results flagged for a closer look

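The PFNA effect differed between the windows, by the limma test of the difference itself, in 27 members. The difference is the log2 effect in ovulation minus that in maturation. Among chaperones it was 0.74 for Hspa5, 0.83 for Hsp90b1, 0.45 for Hyou1, 0.24 for Dnajb11, 2.02 for Sdf2l1, 1.18 for Manf and 0.92 for Creld2. Among lectins and isomerases it was 0.78 for Calr, 0.39 for Canx, 0.67 for Pdia3, 1.16 for Pdia4, 0.73 for Pdia6 and 0.56 for P4hb. Of the transcription factors, Xbp1 differed by 0.76 and Atf6b by 0.30. Among removal genes it was 0.55 for Edem1, 0.37 for Edem2, 1.62 for Herpud1, 0.32 for Sel1l, 0.28 for Derl2 and 1.96 for Derl3, and in the other direction -0.45 for Edem3 and -0.66 for Derl1. Among channel genes it was 0.58 for Sec61b, 0.32 for Sec61a1, 0.19 for Ssr2 and 0.42 for Ssr3.

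In 2 of 34 members, 1 maturation PFNA library lay far from the other 9. Dnajb9 was 141 TPM in replicate 5, with the next at 114, and Sec61b was 55.4 TPM in replicate 2, with the next at 38.9. Chance gives about 1.7 such libraries in 34 searches.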

How the results depend on the processing

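Member calls numbered 23 to 25 in maturation, 24 to 26 in ovulation and 25 to 27 for the window difference when 1 library was left out, and calls among other pathway genes 56 to 72 and 99 to 105. With the oocyte marker share in the fit, maturation calls went from 24 to 6 members and from 64 to 10 pathway genes; that share differs between the groups, and its part cannot be told apart from PFNA's here. Under every alternative run for each, 6 of 24 maturation, 20 of 26 ovulation and 24 of 27 window-difference calls held. The window difference was not refitted with the oocyte marker share, so its count does not cover that setting. Changes that turned sign were never called: with the oocyte share Derl3 (0.24) and Ssr3 (0.10) in maturation and Creld2 (-0.074) and Derl2 (-0.017) in ovulation, without the count filter Derl2 (-0.0055) and Sec61a1 (-0.014), with library totals only Ssr2 (0.036), and for the window difference Syvn1 (0.015) without maturation PFNA replicates 1 and 2; leaving out 1 library gave -0.00081 to 0.049 for Derl2, -0.00057 to 0.035 for Sec61a1 and -0.11 to 0.014 for the difference of Syvn1. The cause was not tested. The replicate numbers did not pair the samples (same-number correlations -0.14 to 0.17 in maturation and -0.19 to 0.07 in ovulation, and no PFNA library was nearest its own number). With the replicate block, calls were 22, 24 and 25 members and 55 and 98 pathway genes. The block removed the maturation calls of Atf6 (adjusted p = 0.22), Syvn1 (0.061) and Sec61b (0.059). Leaving out 1 library ended the window difference of Dnajb11 in 28 of 44 fits, Ssr2 in 20 and Sel1l in 7. Depth is unknown for TPM, so the lowest member there, Atf6, has no counting error to read.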
